A study of Mus musculus with 6 samples.

Results

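The genes described here are the 8 genes of glucose production, fructose use and the polyol route in the kidney: Pcx, Pck1, Fbp1, G6pc and Slc37a4 for gluconeogenesis, Khk for fructose, and Akr1b3 and Sord for the polyol route. They were taken from the arrays by gene name or by the current symbol of the RefSeq transcript a probe was designed on, which gave 8 genes of 22741 tested, read by 12 probes of 56599. Renal cortex was profiled on 6 one-colour Agilent arrays, 3 from male mice lacking the C3a receptor (C3aR-/-) and 3 from male wild-type (WT) mice. C3aR is the cell-surface receptor for C3a, a peptide cut from complement component C3 during complement activation. Both groups were C57BL/6 and diabetic: a diet with 60% of its calories as fat began at 8 weeks of age, streptozotocin (STZ), a toxin of insulin-producing beta cells, followed after 4 weeks at 60 mg/kg on 3 days, and the kidneys were taken 26 weeks after STZ. The labels do not say how the receptor allele was made. No arrays of mice on normal chow are among the 6, so the values compare genotypes within diabetes and say nothing of what diabetes itself changed.

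The proximal tubule of the renal cortex is, besides the liver, the main site where free glucose is made. Pyruvate carboxylase (Pcx) turns pyruvate into oxaloacetate and cytosolic phosphoenolpyruvate carboxykinase (Pck1) makes phosphoenolpyruvate from it. Fructose bisphosphatase (Fbp1) removes a phosphate further along, the transporter Slc37a4 carries glucose-6-phosphate into the endoplasmic reticulum, and the catalytic subunit G6pc releases glucose there. In the polyol route, aldose reductase (Akr1b3) reduces glucose to sorbitol and sorbitol dehydrogenase (Sord) oxidises sorbitol to fructose, which ketohexokinase (Khk) phosphorylates. In diabetes, high glucose is known to feed this route.

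The stretches just upstream of the start sites of these genes were searched for known motifs. RefSeq windows of GRCm38.p6 holding the 250 bases before each start matched 7 of the 8 genes, all but Akr1b3, with 10 windows in all. In the windows below, capitals mark a motif found by search of both strands. Pck1 (chr2:173152823-173153072, plus strand) and Slc37a4 (chr9:44396696-44396945, plus strand) hold ACGTCA, the core of the cAMP response element, G6pc (chr11:101367466-101367715, plus strand) holds TGTTTTG, the core of the insulin response sequence to which FOXO factors bind, and Khk (chr5:30921309-30921558, plus strand) holds the E-box CACGTG.
Pck1: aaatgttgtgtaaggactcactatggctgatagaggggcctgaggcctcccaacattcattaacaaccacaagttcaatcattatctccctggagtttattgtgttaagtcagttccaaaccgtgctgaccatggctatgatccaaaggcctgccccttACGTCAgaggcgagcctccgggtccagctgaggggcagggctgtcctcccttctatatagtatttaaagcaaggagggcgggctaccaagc
Slc37a4: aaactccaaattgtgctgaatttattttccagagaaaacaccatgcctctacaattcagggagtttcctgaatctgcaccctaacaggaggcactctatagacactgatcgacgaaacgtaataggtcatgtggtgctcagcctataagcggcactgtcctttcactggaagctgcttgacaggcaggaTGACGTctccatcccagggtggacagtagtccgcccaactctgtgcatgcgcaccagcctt
G6pc: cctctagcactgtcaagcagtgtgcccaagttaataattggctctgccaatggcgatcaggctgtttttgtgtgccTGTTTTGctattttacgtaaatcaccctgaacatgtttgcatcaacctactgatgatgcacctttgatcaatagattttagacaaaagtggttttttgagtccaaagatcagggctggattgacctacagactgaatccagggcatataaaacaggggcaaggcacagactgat
Khk: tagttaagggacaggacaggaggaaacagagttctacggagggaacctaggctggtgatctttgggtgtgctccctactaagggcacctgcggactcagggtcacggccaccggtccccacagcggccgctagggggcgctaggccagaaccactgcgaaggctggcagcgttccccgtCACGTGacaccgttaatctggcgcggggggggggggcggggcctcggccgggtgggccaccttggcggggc
The match lies 91 to 86 bases before the start in Pck1 and 61 to 56 bases before it in Slc37a4, where it reads TGACGT and so lies on the opposite strand. It lies 174 to 168 bases upstream in G6pc and 71 to 66 bases upstream in Khk. A window of Pcx also holds CACGTG, 248 to 243 bases upstream. Of 32851 such windows across the genome, 6.47% hold ACGTCA, 5.56% hold TGTTTTG and 6.02% hold CACGTG. The full palindrome TGACGTCA, which contains ACGTCA, is in 1.55% of windows and the hepatocyte nuclear factor 4 motif CAAAGTCCA in 0.384%; neither is in a window of these genes. The windows of Fbp1 and Sord, and another window each of Slc37a4 and Pcx, hold none of the 5 motifs searched. A match is a string of letters, and binding was not measured. Whether the motifs have a part in the levels of these genes was not tested.

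Levels below are log2 of the processed signal after subtraction of the 75th percentile of the same array, so that 0 marks that percentile. A level belongs to its probe and is compared between arrays, never between genes. Differences are C3aR-/- minus WT with the standard error of limma, a linear model that pools the spread over all genes, and adjusted p is after Benjamini-Hochberg over all 22741 genes. All 12 probes were well above background on all 6 arrays. Nothing in the labels says that replicates were separate animals, so each p-value reflects spread among these samples, which may be technical, and an exact permutation of 3 arrays against 3 cannot give a p below 0.1. Between 58.6% and 63.0% of probes were well above background on an array. C3ar1, the targeted gene, read -4.10, -4.95 and -4.69 in C3aR-/- and -2.96, -3.86 and -3.62 in WT, without overlap, as in 4.19% of all genes with C3aR-/- lower. Its difference was -1.10 ± 0.30 (limma adjusted p 0.931), and its probe was well above background on 5 of the 6 arrays.

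None of the 8 genes differed between the genotypes beyond the spread of the arrays. Pcx, Pck1, Fbp1, G6pc, Slc37a4, Khk and Sord averaged 0.24 to 0.39 log2 higher in C3aR-/-, while Akr1b3 averaged 0.34 log2 lower, and in each of the 8 genes the groups overlapped. In limma, 0 of 8 genes passed an adjusted p of 0.05, where 0% of all tested genes did. At an unadjusted p of 0.05 the count was again 0 of 8, against 4.89% of all genes. Groups without overlap were found in 0 of 8, against 9.85% of all genes. A mean above that of WT was found in 7 of 8 genes, against 56.6% of all genes, and the median difference was 0.30 over the 8 genes and 0.026 over all genes.

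Among the gluconeogenic enzymes, Pck1, long used as a measure of the pathway because its transcription is tightly regulated, had levels of 6.13, 6.86 and 5.87 in C3aR-/- and 5.21, 6.33 and 6.18 in WT (mean 6.28 ± 0.51 and 5.91 ± 0.60, SD, n = 3 each). Replicate 2 of C3aR-/- was the highest array and replicate 1 of WT the lowest, and C3aR-/- replicate 3 lay below WT replicates 2 and 3. The difference was 0.38 ± 0.37, a fold of 1.30, with a 95% interval of -0.52 to 1.28 and an adjusted p of 0.931. Its probe lies on chromosome 2 at 172984307 to 172984366 (mm9, as are all probe positions).

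G6pc, the last step of glucose release, had levels of 4.18, 5.26 and 3.88 in C3aR-/- and 3.24, 4.30 and 4.60 in WT. It had the widest range of the 8 genes, 4.05-fold between the highest and lowest array, and the same arrays stood at the ends as in Pck1. The difference was 0.39 ± 0.47 (95% interval -0.74 to 1.53, limma adjusted p 0.931), smaller than the SD within either group, which was 0.72 in C3aR-/- and 0.71 in WT. The probe lies on chromosome 11 at 101238947 to 101239006.

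Fbp1 had levels of 7.66, 8.42 and 7.55 in C3aR-/- and 7.11, 7.91 and 7.63 in WT. The lowest C3aR-/- array was below WT replicates 2 and 3. The difference was 0.33 ± 0.30 (95% interval -0.39 to 1.04, limma adjusted p 0.931). Its probe lies on chromosome 13 at 62966175 to 62966234.

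Slc37a4 levels were 5.29, 5.88 and 4.99 in C3aR-/- and 4.65, 5.41 and 5.28 in WT, a difference of 0.27 ± 0.29 (95% interval -0.43 to 0.97, limma adjusted p 0.931). C3aR-/- replicate 1 and WT replicate 3 were nearly level. A dimmer second probe, designed on another cDNA, read -3.71, -3.13 and -3.77 in C3aR-/- and -4.16, -3.50 and -3.54 in WT, with a difference of 0.20 ± 0.25. The probes lie on chromosome 9 at 44210978 to 44211037 and 44205736 to 44205795.

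Pcx, which feeds the pathway with oxaloacetate, had levels of 5.45, 6.11 and 5.16 in C3aR-/- and 4.62, 5.82 and 5.56 in WT. WT replicates 2 and 3 both lay above C3aR-/- replicates 1 and 3. The difference, 0.24 ± 0.37, was the smallest in size of the 8 genes (95% interval -0.66 to 1.14, limma adjusted p 0.947). Its probe lies on chromosome 19 at 4621610 to 4621669.

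**Figure D1:**
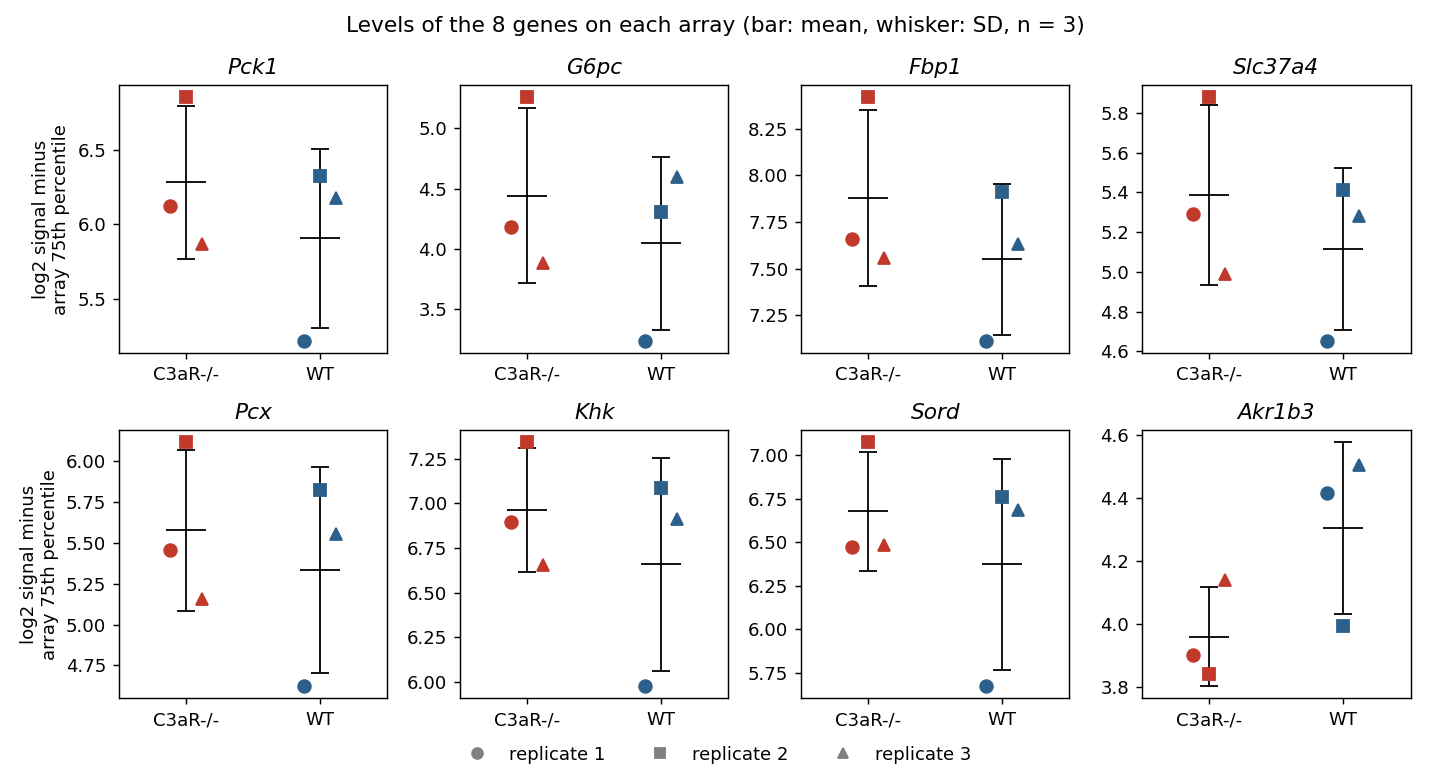
Level of each of the 8 genes on the 6 arrays (vertical axis, log2 signal relative to the array's 75th percentile); points are arrays with a symbol for each replicate, C3aR-/- left of WT, bars are group means and whiskers SD (n = 3). In 7 genes C3aR-/- replicate 2 is the highest point and WT replicate 1 the lowest, and in all 8 genes the groups overlap.

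Khk had levels of 6.89, 7.34 and 6.65 in C3aR-/- and 5.97, 7.08 and 6.92 in WT. Apart from WT replicate 1 and C3aR-/- replicate 2, the arrays lay close together, between 6.65 and 7.08. The difference was 0.31 ± 0.33 (95% interval -0.48 to 1.09, limma adjusted p 0.931). The probe lies on chromosome 5 at 31233555 to 31233614.

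A second Khk probe was designed on predicted transcripts only, and its sequence is shown because its Pearson's r with the main probe of its gene was the lowest among the second probes, although by Spearman's rho that of Sord was lower. The Khk gene is known for a pair of alternative exons that give isoforms A and C, and which of them this probe reads is not given in the files. It lies at chr5:31229105-31229164 (mm9, plus strand).
Khk second probe: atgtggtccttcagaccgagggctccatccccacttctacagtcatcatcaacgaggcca
It read -1.61, -0.99 and -1.27 in C3aR-/- and -1.39, -1.17 and -1.24 in WT. The groups overlapped throughout and the difference was -0.024 ± 0.18. WT replicate 1 was not at the bottom here: C3aR-/- replicate 1 was.

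Sord had levels of 6.47, 7.07 and 6.49 in C3aR-/- and 5.67, 6.76 and 6.68 in WT, a difference of 0.30 ± 0.33 (95% interval -0.49 to 1.10, limma adjusted p 0.931). WT replicates 2 and 3 exceeded C3aR-/- replicates 1 and 3. Its second probe read 5.82, 6.19 and 5.60 in C3aR-/- and 4.74, 5.88 and 5.54 in WT, a difference of 0.48 ± 0.31. The probes lie on chromosome 2 at 122091013 to 122091072 and 122090499 to 122090558.

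Akr1b3, the enzyme at the entry of the polyol route, went the other way. Its levels were 3.90, 3.84 and 4.14 in C3aR-/- and 4.42, 3.99 and 4.51 in WT (mean 3.96 ± 0.16 and 4.31 ± 0.27, SD, n = 3 each). WT replicate 2 lay below C3aR-/- replicate 3, and the other WT arrays lay above all C3aR-/- arrays. The difference was -0.34 ± 0.17, a fold of 0.787, with a 95% interval of -0.75 to 0.058, and limma gave an unadjusted p of 0.0819 and an adjusted p of 0.931. Its range over the arrays was 1.59-fold, against 2.34-fold to 4.05-fold in the other 7 genes. The probe lies on chromosome 6 at 34253930 to 34253982.

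The second Akr1b3 probe is shown because it was the 1 probe of the 12 with an unadjusted limma p under 0.05, so it was picked for its value. Over genes, 4.89% passed that limit, and the share over all tested probes was not counted. The second probe lies at chr6:34260573-34260632 (mm9, minus strand).
Akr1b3 second probe: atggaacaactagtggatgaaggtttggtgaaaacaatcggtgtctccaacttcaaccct
It read -0.20, -0.10 and 0.19 in C3aR-/- and 0.67, 0.095 and 0.62 in WT. As with the main probe, WT replicate 2 lay among the C3aR-/- arrays. The difference was -0.50 ± 0.19, with an unadjusted p of 0.0383 and an adjusted p over probes of 0.947 in limma.

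**Figure D2:**
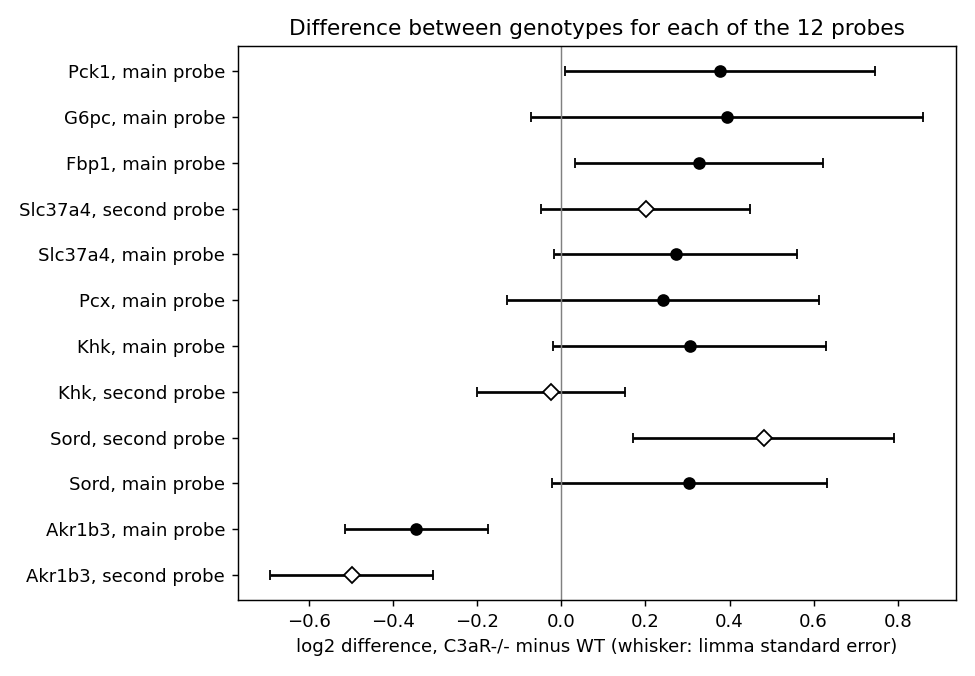
Difference between C3aR-/- and WT for each of the 12 probes (log2, C3aR-/- minus WT), with whiskers for the limma standard error; filled circles are main probes and open diamonds second probes. Both Akr1b3 probes lie below 0, the second Khk probe lies at -0.024, and the probes of the other genes lie above 0.

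By Pearson's r the second probe followed the main one across the 6 arrays in 3 of the 4 genes that had both. Pearson's r was 0.979 in Slc37a4, 0.973 in Akr1b3 and 0.950 in Sord, with adjusted exact permutation p of 0.0222, 0.0222 and 0.0296 over the 4 relations. Spearman's rho was 0.943, 0.886 and 0.771, with adjusted exact permutation p of 0.0667, 0.0667 and 0.103. In Khk r was 0.514 (adjusted exact p 0.314) and rho 0.829 (adjusted exact p 0.0778). Without the 2 arrays farthest from the median, r was 0.812 in Slc37a4, 0.878 in Akr1b3, 0.179 in Sord and 0.179 in Khk, so that in Sord the relation rested on C3aR-/- replicate 2 and WT replicate 1.

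The order of the arrays was nearly the same in Pcx, Pck1, Fbp1, G6pc, Slc37a4, Khk and Sord. All 7 were highest on C3aR-/- replicate 2 and lowest on WT replicate 1, the order found in 14.3% of all tested genes, and the reverse order was found in 10.7% of them. Akr1b3 was lowest on C3aR-/- replicate 2 and highest on WT replicate 3. Across the 21 pairs of the 7 genes, r was 0.925 to 0.990 and rho 0.829 to 1, with exact permutation p adjusted over all 28 pairs of 0.0120 to 0.0296 for r and 0.0194 to 0.0778 for rho. Without C3aR-/- replicate 2 and WT replicate 1, r over the remaining 4 arrays was 0.32 to 0.997, so in some pairs the relation rested on those arrays. In the 7 pairs with Akr1b3, r was -0.713 to -0.479 (adjusted exact p 0.113 to 0.358).

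Of all 22741 genes, 473 (2.08%) correlated with Pck1 at least as closely as the least correlated of the other 6 did (r = 0.968). That count includes Pck1 itself and the other 6. The 2 genes nearest in pattern to each of the 8, by Pearson's r over the 6 arrays, were Ndufv1 and St3gal3 for Pck1 (0.999 each), Nf2 and Atp6v1f for G6pc (0.998 and 0.996), Rab24 and Cd244 for Fbp1 (0.997 each), and Cpt2 and Sfxn1 for Slc37a4 (0.999 and 0.998). For Pcx they were Me1 (0.999) and Rab17 (0.997), for Khk Bckdha (0.998) and A1cf (0.997), for Sord Fancd2os (0.998) and Slc22a2 (0.997), and for Akr1b3 Tff2 and Fam174b (0.989 each). The choice was limited to tested genes outside the 8 with a standard gene symbol, leaving out clone and predicted-gene names. These genes were picked for their likeness, so their r is a description.

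Markers of tubule state were read array by array beside the 7 genes. The mean level of 19 proximal tubule markers was 5.04, 5.42 and 4.94 in C3aR-/- and 4.01, 5.19 and 4.94 in WT, with the same array at each end. The mean of 10 injured tubule markers was 3.16, 2.80 and 3.43 in C3aR-/- and 4.27, 3.36 and 3.52 in WT, with the ends exchanged. In bulk tissue, fewer cells of a type and less RNA per cell cannot be told apart. With the proximal tubule mean the 7 genes had r of 0.874 to 0.980 (exact permutation p adjusted over 32 relations 0.0444 to 0.0889), and with the injured tubule mean -0.937 to -0.870 (adjusted exact p 0.0889 to 0.1). At an adjusted exact p of 0.05, 2 of the 7 relations with proximal tubule markers passed, those of Fbp1 and Slc37a4 (r 0.904 and 0.907). Pck1, Pcx, Khk and Sord had higher r (0.952, 0.939, 0.980 and 0.974) but larger exact p, so passing does not mark the closest relations. The share of all genes that would pass was not computed. With injured tubule markers 0 of 7 passed, where the unadjusted exact p was 0.0222 to 0.05. Spearman's rho was 0.829 to 1 (adjusted exact p 0.0444 to 0.187) and -0.886 to -0.6 (adjusted exact p 0.133 to 0.387). Without C3aR-/- replicate 2 and WT replicate 1, r ranged from 0.10 to 0.961 and from -0.267 to 0.461, so the negative r with injured tubule markers rested on those arrays, as did r with proximal tubule markers in G6pc. With the leukocyte marker mean the 7 genes had r of -0.775 to -0.584 (adjusted exact p 0.162 to 0.297). With the mean of thick limb, distal tubule and collecting duct markers r was 0.418 to 0.615 (adjusted exact p 0.293 to 0.408). The part of any of these marker lists in the values of the 7 genes was not tested.

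For Akr1b3 no relation with a marker list passed an adjusted exact p of 0.05. With the injured tubule mean it had r of 0.790 and rho of 0.943 (adjusted exact p 0.0948 and 0.0889), and r of 0.877 without the end arrays. With the mean of 13 leukocyte markers, which was 0.086, -0.31 and 0.018 in C3aR-/- and 0.63, 0.23 and 0.62 in WT, r was 0.895 and rho 0.771 (adjusted exact p 0.0889 and 0.274), and r was 0.483 without WT replicates 1 and 3. The mean over the thick limb, distal tubule and collecting duct markers was 2.22, 2.24 and 2.33 in C3aR-/- and 2.04, 2.18 and 2.15 in WT. All its C3aR-/- values lay above all its WT values, as in 5.66% of single genes. With this mean Akr1b3 had r of -0.567 and rho of -0.6 (adjusted exact p 0.297 and 0.387). Without C3aR-/- replicate 3 and WT replicate 1, r was -0.865. The part of these marker lists in the Akr1b3 values was not tested.

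**Figure D3:**
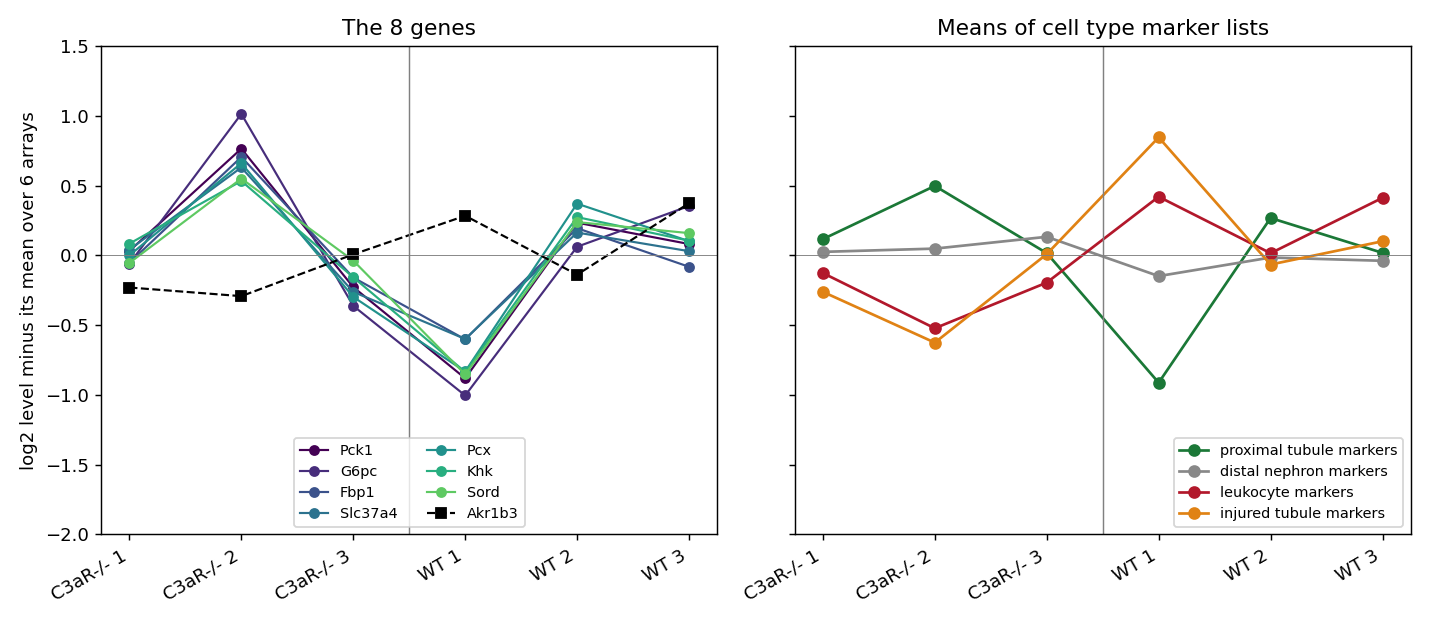
Array by array pattern of the 8 genes (left) and of the mean levels of 4 marker lists (right), each as its log2 level minus its own mean over the 6 arrays, C3aR-/- arrays left of WT. The 7 genes and the proximal tubule markers peak on C3aR-/- 2 and dip on WT 1, while injured tubule markers do the opposite and Akr1b3 is highest on WT 3.

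The size and sign of the differences of the 7 genes depended on the highest C3aR-/- array and the lowest WT array. Leaving out either of these lowers a difference by construction, and leaving out any other single array gave medians of 0.37 to 0.50 over the 8 genes. Without WT replicate 1 the median difference of the 8 genes was -0.023, without C3aR-/- replicate 2 it was 0.041, and without both it was -0.24. Without both, all 7 genes had means lower in C3aR-/-, from -0.42 in G6pc to -0.16 in Fbp1, as against Akr1b3 at -0.23. The arrays lay in 2 rows of the slide. In row 1, with 2 arrays of each genotype, the 7 genes differed by 0.049 to 0.27, and in row 2, with C3aR-/- replicate 3 and WT replicate 1 alone, by 0.34 to 0.82, while Akr1b3 differed by -0.38 and -0.28.

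**Figure D4:**
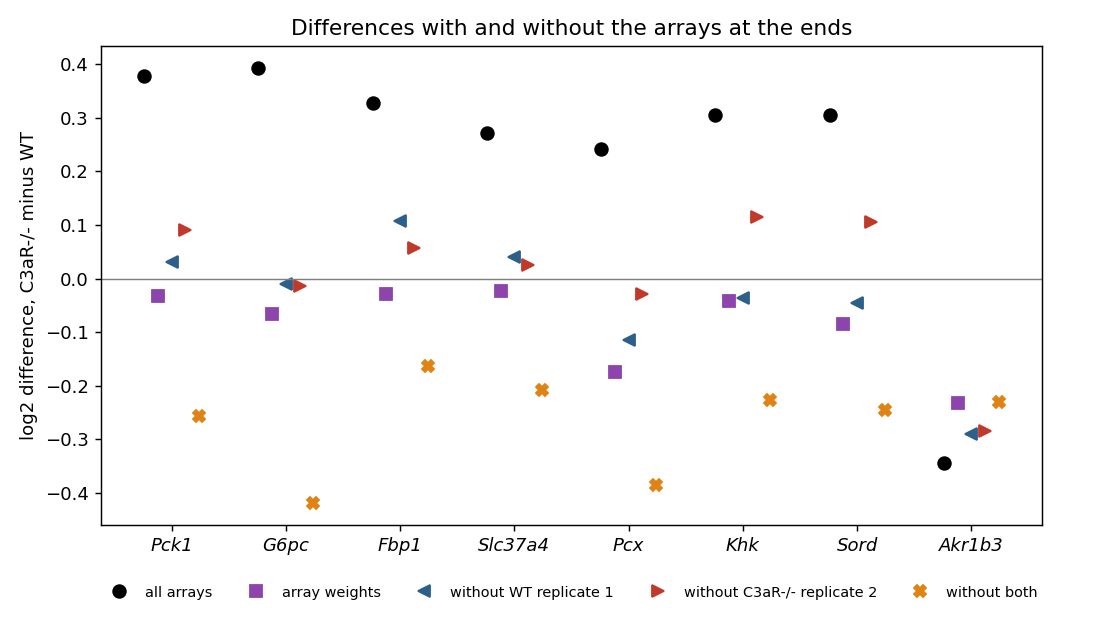
Difference of each gene (log2, C3aR-/- minus WT) with all arrays, with limma array weights, and after leaving out C3aR-/- replicate 2, WT replicate 1 or both of these arrays. The 7 genes lie at 0.24 to 0.39 with all arrays and below 0 without both, while Akr1b3 lies below 0 in each case.

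Of 19 further gluconeogenic and shared glycolytic genes, 14 averaged higher and 5 lower in C3aR-/-, with a median of 0.11 and a range of -0.70 to 0.34, and 0 passed either the adjusted or the unadjusted limit of 0.05 in limma, where 4.89% of all genes passed the latter limit. Pck2, the mitochondrial carboxykinase, had levels of 1.80, 1.75 and 1.72 in C3aR-/- and 1.87, 1.85 and 1.92 in WT, a difference of -0.12 ± 0.088. Its groups did not overlap, with C3aR-/- lower, as in 4.19% of all genes. G6pc3, the widely expressed relative of G6pc, and Fbp2, the muscle form of the bisphosphatase, differed by -0.021 ± 0.10 and -0.038 ± 0.12.

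The proximal tubule makes glucose chiefly from lactate and glutamine. All 10 supply genes averaged higher in C3aR-/- (median 0.17), but 0 passed the adjusted or the unadjusted limit in limma. Over all genes, 56.6% averaged higher and 4.89% passed the unadjusted limit, and the counts of the lists below stand beside these shares. Glud1, glutamate dehydrogenase, differed by 0.14 ± 0.15 and Slc38a3, a glutamine carrier, by 0.35 ± 0.31. Among 19 regulators, 11 averaged higher and 8 lower (median 0.12), and again 0 passed either limit. Foxo1, a transcription factor restrained by insulin, read 2.73, 2.90 and 2.79 in C3aR-/- and 2.51, 2.65 and 2.67 in WT, a difference of 0.20 ± 0.10. Its groups did not overlap, with C3aR-/- higher, as in 5.66% of all genes. Of the other regulators, Nr3c1, the glucocorticoid receptor (0.10 ± 0.090), was also higher without overlap. The transcription factor Cebpb (-0.16 ± 0.097) was lower without overlap, as in 4.19% of all genes. Nr3c1 and Cebpb are named after their values were seen. The coactivator Ppargc1a (0.17 ± 0.15), the nuclear receptor Hnf4a (0.14 ± 0.19) and the insulin receptor Insr (0.12 ± 0.13) had groups that overlapped.

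The medians of these lists moved with the end arrays too. The supply genes had a median of 0.024 without C3aR-/- replicate 2, 0.085 without WT replicate 1 and -0.073 without both. For the further gluconeogenic genes the median was 0.028, 0.032 and -0.045 in the same order, and for the regulators 0.032, 0.016 and -0.039.

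Fructose genes other than Khk showed no common direction. Of 11 tested, out of 12 listed, 6 averaged higher and 5 lower (median 0.031), and 0 passed either limit in limma. Among all genes 56.6% averaged higher and 4.89% passed the unadjusted limit. Tkfc, the triokinase of fructose breakdown, differed by 0.092 ± 0.22, Slc2a5, the fructose carrier, by 0.031 ± 0.29 and Glyctk, glycerate kinase, by 0.36 ± 0.26. Among 11 polyol relatives and osmolyte genes, 8 averaged higher and 3 lower (median 0.086), and 0 passed either limit. Akr1b8, an aldose reductase relative, had levels of 3.46, 3.17 and 3.72 in C3aR-/- and 4.60, 3.33 and 3.59 in WT, a difference of -0.39 ± 0.34 set mainly by WT replicate 1. Akr1b7 (0.051 ± 0.19), Akr1b10 (-0.086 ± 0.10) and the aldehyde reductase Akr1a1 (0.15 ± 0.18) lay close to 0. Nfat5, the tonicity-responsive factor known to raise aldose reductase transcription, differed by -0.16 ± 0.13, and Slc5a3, the inositol carrier it also controls, by 0.086 ± 0.17. Without C3aR-/- replicate 2, without WT replicate 1 and without both, the median of the fructose genes was -0.036, -0.087 and -0.093, and that of the polyol relatives 0.0099, 0.0033 and -0.071.

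Cell type markers were read the same way. Of 19 proximal tubule markers, 18 averaged higher in C3aR-/- (median 0.36), and 0 passed either limit in limma. Among all genes 56.6% averaged higher and 4.89% passed the unadjusted limit. The glucose carrier Slc5a2 differed by 0.57 ± 0.38, the phosphate carrier Slc34a1 by 0.56 ± 0.44 and the endocytic receptor Lrp2 by 0.40 ± 0.26. Slc7a13, of the late segment, read 2.74, 2.47 and 2.83 in C3aR-/- and 0.82, 2.85 and 2.84 in WT, so that its difference of 0.51 ± 0.55 came from WT replicate 1. All 10 injured tubule markers averaged lower (median -0.68) and 10 of 13 leukocyte markers did (median -0.51). At the unadjusted limit 4 injured tubule and 5 leukocyte markers were lower, where 2.68% of all genes were, and 0 passed the adjusted limit in limma. Besides Lcn2 these were the injured tubule markers Sox9 (-0.60 ± 0.10), Krt19 (-0.80 ± 0.27) and Cp (-0.74 ± 0.26). The leukocyte markers were Lyz2 (-0.92 ± 0.21), Cd2 (-1.46 ± 0.32), Cd3e (-0.51 ± 0.18), Cd3g (-1.44 ± 0.37) and Cd79b (-0.66 ± 0.15). Groups of Lcn2, Sox9 and Cp, 3 of 10 injured tubule markers, did not overlap, with C3aR-/- lower, against 4.19% of all genes. The same held for Lyz2, Cd2, Cd3g and Cd79b, 4 of 13 leukocyte markers. The other 3 leukocyte markers that went the other way were Ptprc (0.088 ± 0.14), Cd4 (0.060 ± 0.13) and Itgam (0.24 ± 0.11). Groups of Itgam did not overlap, with C3aR-/- higher, as in 5.66% of all genes. All of these but Lcn2 are named after their values were seen. Lcn2 read 1.62, 1.69 and 1.85 in C3aR-/- and 3.99, 2.28 and 2.52 in WT (-1.21 ± 0.44, unadjusted limma p 0.0299), and Havcr1 read 2.80, 1.28 and 3.50 in C3aR-/- and 4.98, 2.54 and 2.76 in WT (-0.90 ± 0.81). Without C3aR-/- replicate 2 the medians were 0.21 for proximal tubule, -0.35 for injured tubule and -0.37 for leukocyte markers, and without WT replicate 1 they were 0.081, -0.23 and -0.38. Without both end arrays the medians were -0.065 for proximal tubule, -0.14 for injured tubule and -0.18 for leukocyte markers. Of 14 markers of the thick limb, distal tubule and collecting duct, 13 averaged higher (median 0.12), and 0 passed the adjusted limit in limma. Slc26a4 alone (0.27 ± 0.098, also named after its values were seen) passed the unadjusted limit with C3aR-/- higher, as 2.21% of all genes did. Groups of Slc26a4, Calb1 (0.35 ± 0.15) and Avpr2 (0.13 ± 0.090) did not overlap, with C3aR-/- higher, 3 of 14 against 5.66% of all genes. Calb1 and Avpr2 are also named after their values were seen. Umod of the thick limb (0.0051 ± 0.16) and Aqp2 of the collecting duct (0.26 ± 0.17) overlapped between the groups. Of 11 glomerular, endothelial and stromal markers, 7 averaged higher and 4 lower (median 0.11, or -0.075 to 0.21 with 1 array left out), and 0 passed either limit.

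**Figure D5:**
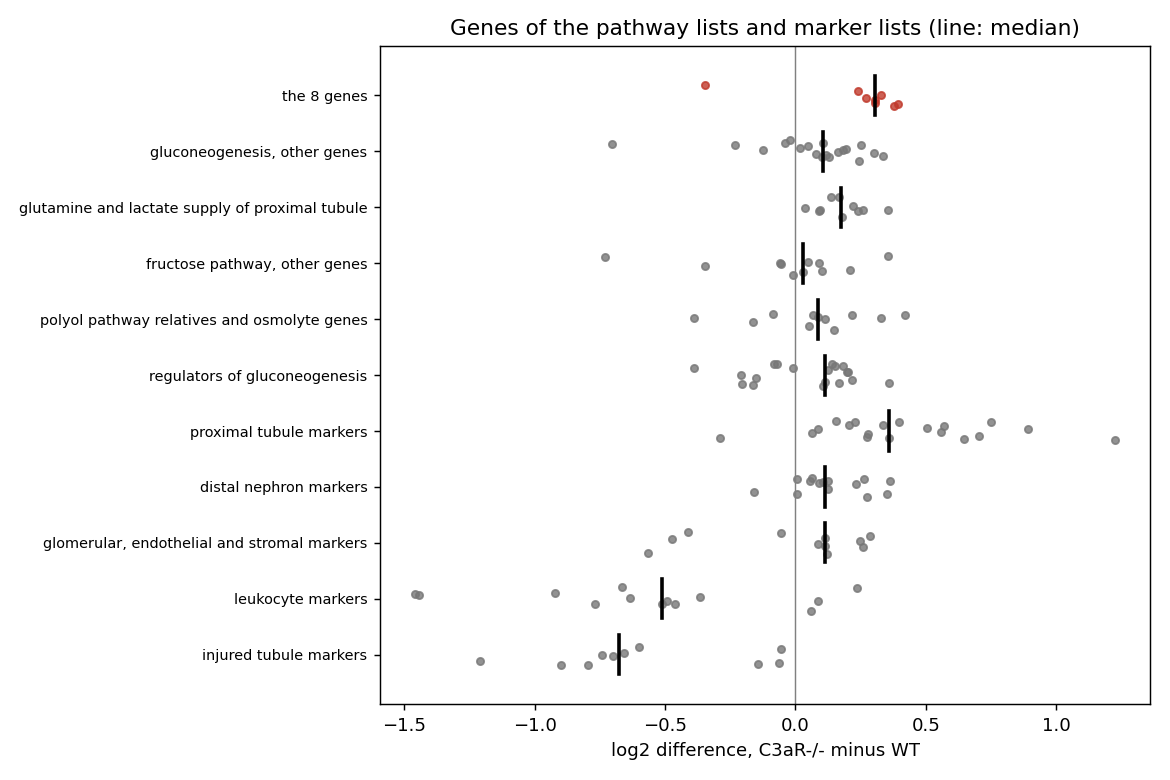
Difference of each tested gene (log2, C3aR-/- minus WT) in the pathway and marker lists; points are genes and bars are list medians. The 8 genes have a median of 0.30, the proximal tubule markers one of 0.36 and the injured tubule markers one of -0.68, and 0 genes in any list passed an adjusted p of 0.05.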

How the data were processed

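RNA of renal cortex, 3 samples from diabetic C3aR-/- and 3 from diabetic WT mice, was read on 6 one-colour arrays, grouped by sample title. Per the labels' protocols, Cy3 cRNA was made from 0.2 µg of RNA. Arrays were scanned on 1 slide of 62976 spots each and read with Agilent Feature Extraction 10.7.1.1, and, per the file headers, the deposited processed signal is a background-subtracted intensity. The authors' deposited table holds log2 values (r of at least 0.999 with the processed signal of the same array, median 5.73 in each column), with the steps behind them not given in the sources used here.

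Spots of controls and outlier spots were dropped (6 probes lost), spots of a probe averaged, log2 signals scaled to the 75th percentile, and probes kept if well above background on at least 3 arrays (34778). The brightest probe stood for a gene. RefSeq accessions named 32992 probes and the files' own names 23607. Tests were limma 3.58.1 in R 4.3.3 and exact two-sided permutations in scipy 1.17.1. The fit was also run on simulated data that took their levels and spread from these arrays, and its outcome is not given here. Members and lists were chosen with earlier results of these data known. Genes named were the 8 members, C3ar1, a fixed set of list members, any list member past adjusted p 0.05, and the 2 genes nearest each member among those with a standard gene symbol. Genes outside this rule are marked as named after their values were seen. Some of these genes are not reported here. The 18 alternatives covered normalization, filters, probe choice, variance model, array weights, blocks and left-out arrays.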

Additional observations from a re-analysis of the deposited data

How the results depend on the processing

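Under all 18 alternatives, limma called 0 of the 8 genes at an adjusted p of 0.05, and their adjusted p ranged from 0.569 to 1. Akr1b3 kept a negative difference in all of them (-0.50 to -0.23). At an unadjusted limma p of 0.05 none of the 8 passed in the main fit, where 4.89% of all genes did. With the replicate number as a block, and without WT replicate 2, Akr1b3 was the 1 gene of 8 that passed. The share of all genes passing in those settings was not counted. WT replicate 2 was the lowest WT array of Akr1b3, so leaving it out widens the difference by construction (-0.50 against -0.34). The replicate block left every difference as it was, with an adjusted p of 0.682 for Akr1b3. The deviations of same-numbered arrays from their group means correlated at 0.125, 0.406 and -0.0929, not above 0.1 in every pair, so the numbers were not taken to pair the samples, and the third replicate of C3aR-/- correlated best with the first of WT (0.346). Array weights turned 7 genes to slightly below 0: Pck1 -0.032, G6pc -0.066, Fbp1 -0.028, Slc37a4 -0.022, Pcx -0.17, Khk -0.042 and Sord -0.085. Without both end arrays (WT replicate 1 and C3aR-/- replicate 2) they were Pck1 -0.26, G6pc -0.42, Fbp1 -0.16, Slc37a4 -0.21, Pcx -0.38, Khk -0.23 and Sord -0.24, and the median of the 8 genes was -0.24, against -0.054 with array weights and 0.30 with all arrays. Leaving out 1 array at a time gave G6pc -0.015 to 0.67, Pcx -0.12 to 0.49, Khk -0.036 to 0.52, Sord -0.046 to 0.50, Pck1 0.032 to 0.59, Fbp1 0.057 to 0.51 and Slc37a4 0.025 to 0.47, and a median of -0.023 to 0.50. The cause was not tested. With 3 arrays a group, the 95% intervals of all 8 genes hold values on both sides of 0.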
